A study of Homo sapiens with 6 samples.

Results

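The cytosolic ribosomal protein genes encode the proteins that, with ribosomal RNA, build the 60S and 40S subunits of the ribosomes in the cytoplasm. They were taken by their symbols in the platform annotation (RPL and RPS genes with their numbers, the stalk genes RPLP0 to RPLP2, and RPSA, without RPS6 kinases and pseudogenes), using probe sets that name exactly 1 gene. A gene with several such probe sets was represented by the brightest of them on average. This gave 72 of the 18132 genes with a probe set of their own, 48 of the 60S and 24 of the 40S subunit by their symbols, on 20 chromosomes. RPL17, RPL36A, RPS12 and RPS26 were named only by probe sets that list several genes and were not analysed here, nor were RPLP0, RPSA and RPS27A.

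The TD tumors grew from CRL-5889 cells transfected with the TRA2B-DNAH5 fusion, and the ctrl tumors from CRL-5889 cells transfected with vector. CRL-5889 is an established human line of lung squamous carcinoma, and all 6 tumors (3 per group) grew in nude mice, which lack a thymus and so most T cells, and were taken at 4 weeks. The labels call the tumors of a group biological replicates. They do not say which mouse carried each tumor or whether a transfected population is a clone, so the fusion and other differences between the 2 cell populations cannot be told apart, and p-values measure the spread between these tumors. RNA of each tumor was read on 1 array.

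As background, growing cells make ribosomes in large numbers, and mRNAs of ribosomal proteins are among the most abundant in tumor cells. Most of the mRNAs start with a run of pyrimidines (the terminal oligopyrimidine tract) through which the kinase mTOR controls their translation. Some members have a paralog gene, a few of which are used in particular tissues, such as RPL3L in skeletal and heart muscle and RPL10L in testis.

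Start sites of some paralogs and their partners are shown together because most core genes began with the pyrimidine tract and most paralogs did not. RPL27A and RPL35A are added because their signals were low. Each line gives 15 bases before and 15 bases from the start site annotated by RefSeq (GRCh38.p14), 5′ to 3′ on the gene's strand. Capitals mark a run of C and T that begins with a C at the start site.
RPL22 (chr1:6199581-6199610, minus strand): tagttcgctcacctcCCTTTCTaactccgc
RPL22L1 (chr3:170870181-170870210, minus strand): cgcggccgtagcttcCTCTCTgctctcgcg
RPS27 (chr1:153990747-153990776, plus strand): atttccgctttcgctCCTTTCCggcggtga
RPS27L (chr15:63157463-63157492, minus strand): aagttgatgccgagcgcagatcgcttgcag
RPL26 (chr17:8383179-8383208, minus strand): aagcagcgtgtagttCTCTTCCCTTTTgcg
RPL26L1 (chr5:172958714-172958743, plus strand): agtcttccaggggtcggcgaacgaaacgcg
RPL10 (chrX:154398362-154398391, plus strand): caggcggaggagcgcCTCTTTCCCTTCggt
RPL10L (chr14:46651767-46651796, minus strand): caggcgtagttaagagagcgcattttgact
RPL39 (chrX:119791616-119791645, minus strand): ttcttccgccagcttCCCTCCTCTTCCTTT
RPL27A (chr11:8682777-8682806, plus strand): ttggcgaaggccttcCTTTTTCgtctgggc
RPL35A (chr3:197950175-197950204, plus strand): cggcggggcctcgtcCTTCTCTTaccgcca
RPL22, RPS27, RPL26, RPL10 and RPL39 start with such a tract, which in RPL39 reaches the end of the window. Of their paralogs, RPL22L1 has one, and RPS27L, RPL26L1 and RPL10L have none at the position shown. RPL27A and RPL35A carry a tract as well. Not shown are RPL3, with a run of only 4 bases, RPL36AL, with a run of 3, and RPL7L1, with none. No promoter was found for RPL39L, RPL3L or RPL7. Where a gene had several annotated promoters, one with a tract was shown first. For RPL10, 1 of 3 promoters is shown, the only 1 with a tract of at least 5 bases. For RPL26L1, 1 of 2 is shown, and 0 of the 2 had such a tract.

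RefSeq promoters (250 bases before to 50 bases after the start) were found for 60 of the 72 members. A C at the start followed by at least 4 further C or T, read on the gene's strand only, was present in 42 of their 72 promoters (58.3%), against 4.54% of 22199 promoters of protein-coding genes. By gene, 41 of 54 core members (all but the paralogs) had it in at least 1 promoter, and 1 of 6 paralogs did. Of 15843 protein-coding genes, 6.24% had it in at least 1 promoter. The word CCGGAAG, searched on both strands, was in 37.5% of the members' promoters and 12.8% of all promoters. On the other strand it reads CTTCCGG, part of which can fall within a tract. The word TATAA, also on both strands and unable to overlap with CCGGAAG, was in 19.4% and 16.5%. These letter matches describe annotated sequences and do not show where transcription began in the tumors. Core members with the tract had a median log2 signal of 13.51 and those without it 13.38. Their median log2 fold changes, TD minus ctrl, were 0.035 and 0.017.

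Most members had a very high signal. Of the 72, 52 had a mean log2 signal of 13 or more, 58 lay in the top 1% of all 49293 probe sets and 68 in the top 5%. Each member stood here by its brightest probe set, ranked among all single probe sets, which can raise its rank. The median over members was 13.37, with quartiles of 12.93 and 13.71, against a median of 7.91 over the 13694 tested genes. A probe set's signal depends on its probes as well as on its transcript, so the order below is one of signals and not of mRNA amounts.

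The 5 highest were RPL32, RPS2, RPL37, RPL39 and RPL37A, with means from 14.15 to 13.96. RPL32, a 60S protein, read 14.19, 14.15 and 14.17 in TD tumors, against 14.02, 14.21 and 14.18 in ctrl tumors. RPS2, a 40S protein at the mRNA entry channel, read 14.16, 14.15 and 14.23 in TD tumors, against 13.98, 14.12 and 14.13 in ctrl tumors. RPL37, a 60S protein, read 14.15, 14.14 and 14.10 in TD tumors, against 13.87, 14.15 and 14.20 in ctrl tumors. In all 3 genes ctrl tumor 1 was the lowest array, and the groups overlapped for RPL32 and RPL37 but not for RPS2. The order of the first 2 genes is not firm: the means of RPL32 and RPS2 (14.15 and 14.13) differed by less than the SDs of their ctrl values across tumors (0.10 and 0.082). Other neighbours were not compared in this way.

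**Figure D1:**
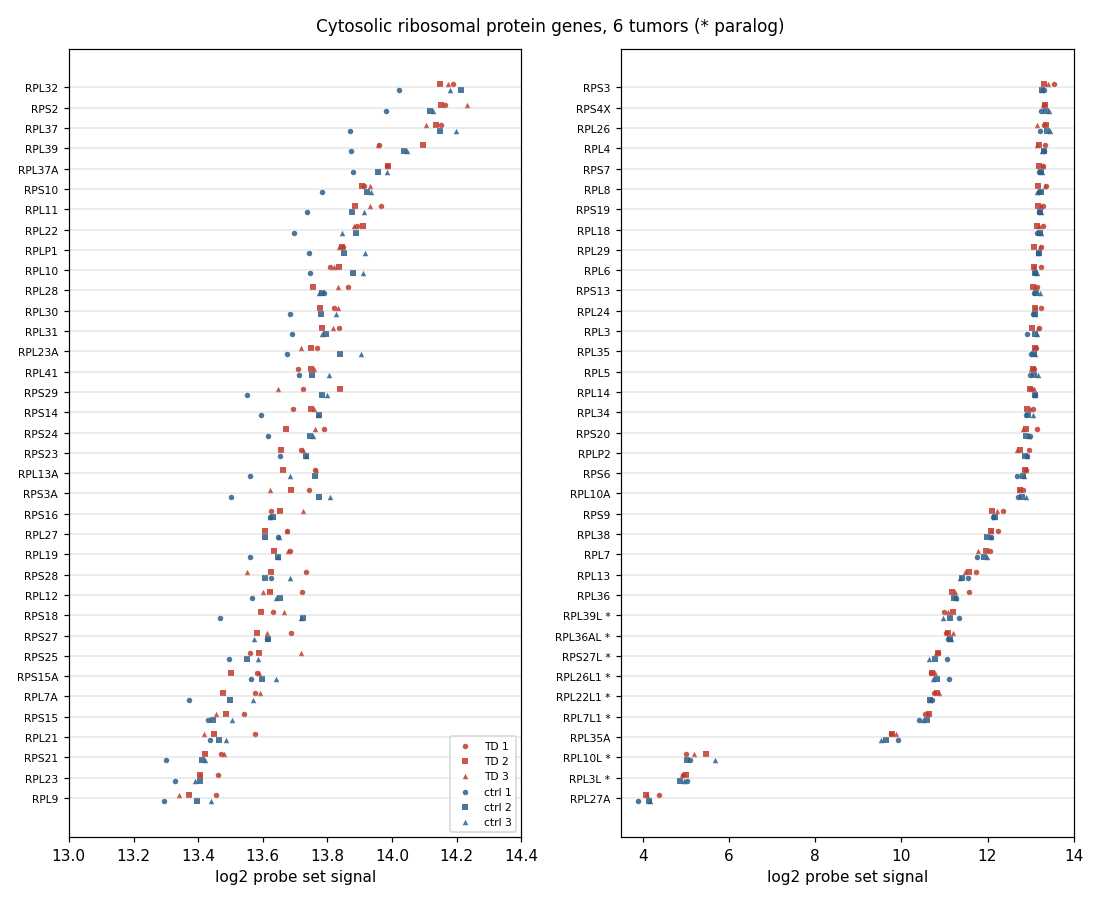
Log2 probe set signal (x axes, with different ranges) of 72 ribosomal protein genes in 3 TD tumors (red) and 3 ctrl tumors (blue), ordered by mean from the top left to the bottom right. Point shapes give the tumor number and stars mark paralogs; most genes sit above 13, most paralogs near 11, and RPL10L, RPL3L and RPL27A lowest.

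The 8 lowest were RPS27L, RPL26L1, RPL22L1, RPL7L1, RPL35A, RPL10L, RPL3L and RPL27A. RPL27A, a 60S protein, was the dimmest, at 4.38, 4.07 and 4.09 in TD tumors, against 3.90, 4.14 and 4.18 in ctrl tumors. The groups overlapped, and the mean of 4.13 was below the filter on dim genes (log2 4.94, the 30th percentile of probe sets), so RPL27A was the 1 member not tested. It rests on the 1 probe set that names RPL27A alone, and describes that probe set rather than the amount of the mRNA.

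RPL35A, a 60S protein and the other low gene that is no paralog, read 9.77, 9.79 and 9.87 in TD tumors, against 9.93, 9.64 and 9.53 in ctrl tumors. The groups overlapped, with ctrl tumor 1 on top. The log2 fold change of RPL35A was 0.11, and 0.23 without that tumor (adjusted p = 0.487 by limma). The other 2 probe sets of RPL35A were dimmer still, at means of 8.03 and 4.18. RPL13 and RPL36, both 60S proteins, had means of 11.51 and 11.29. Gaps between probe sets of a gene were common: of 53 members with more than 1 probe set, 29 had probe sets whose means differed by more than 4 on the log2 scale. In RPL28, a 60S protein with 9 probe sets, the means ran from 4.47 to 13.80. RPL27A and RPL35A are therefore not shown to be low as genes.

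Of the 8 paralogs, RPL3L and RPL10L were dim and the other 6 had means between 10.56 and 11.12. RPL3L, the muscle paralog of RPL3, read 4.94, 5.004 and 4.92 in TD tumors, against 5.03, 4.87 and 4.95 in ctrl tumors, close to the filter. RPL3 itself read 13.20, 13.04 and 13.18 in TD tumors, against 12.92, 13.10 and 13.14 in ctrl tumors. Both genes overlapped between the groups, and RPL3L was nearly flat. The 9 skeletal muscle markers had mean log2 signals of 5.29, 6.13 and 5.38 in TD tumors and 6.14, 5.69 and 5.44 in ctrl tumors. RPL3L was highest in the same pair of tumors (ctrl 1 and TD 2) as these markers. In ctrl tumor 2, however, RPL3L had its lowest value (4.87), while the markers (5.69) were above those of the remaining tumors. The part of muscle RNA in the values of RPL3L was not tested.

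RPL10L, the testis paralog of RPL10, had the largest spread within groups of any member (pooled SD 0.30). It read 5.01, 5.47 and 5.20 in TD tumors, against 5.10, 5.02 and 5.68 in ctrl tumors. RPL10, a 60S protein, was even, at 13.81, 13.84 and 13.82 in TD tumors, against 13.75, 13.88 and 13.91 in ctrl tumors. RPL39L, the paralog of RPL39 known for its use in testis, was far brighter than RPL10L on its own probe set, at 10.997, 11.20 and 11.08 in TD tumors, against 11.34, 11.14 and 10.96 in ctrl tumors. RPL39, which lines the exit tunnel of the 60S subunit, read 13.96, 14.09 and 13.96 in TD tumors, against 13.87, 14.04 and 14.05 in ctrl tumors. The groups overlapped for all 4 genes.

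RPL22L1, the paralog of the RNA-binding 60S protein RPL22, had the smallest p of the members. It read 10.76, 10.82 and 10.86 in TD tumors, against 10.70, 10.68 and 10.66 in ctrl tumors, so every TD tumor lay above every ctrl tumor. The log2 fold change was 0.14 (SE 0.084, 95% confidence interval -0.057 to 0.33), with an adjusted p of 0.956 by limma and an exact permutation p of 0.1, the smallest that 3 against 3 tumors can give. A second, dim probe set of RPL22L1 (mean 4.52) had a difference of -0.030. RPL22 averaged 13.89 ± 0.014 in TD tumors and 13.81 ± 0.10 in ctrl tumors (SD, n = 3 each).

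RPL26L1, the paralog of RPL26, had the lowest log2 fold change of all members, -0.16 (SE 0.11, adjusted p = 0.962 by limma). It read 10.70, 10.71 and 10.77 in TD tumors, against 11.10, 10.82 and 10.74 in ctrl tumors. The groups overlapped, and ctrl tumor 1 stood 0.35 above the mean of the other 5. Without that tumor the log2 fold change was -0.050. RPL26, a 60S protein, read 13.30, 13.36 and 13.14 in TD tumors, against 13.22, 13.39 and 13.44 in ctrl tumors, again with overlap.

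RPS27L, a paralog of RPS27 known as a target of p53, averaged 10.84 ± 0.025 in TD tumors and 10.83 ± 0.21 in ctrl tumors (SD, n = 3 each). Its ctrl values were 11.06, 10.77 and 10.65, and all 3 TD values fell between the highest and the lowest of them. RPS27, a 40S protein, averaged 13.63 ± 0.055 in TD tumors and 13.60 ± 0.023 in ctrl tumors. RPL36AL, a relative of RPL36A, averaged 11.10 ± 0.079 in TD tumors and 11.12 ± 0.034 in ctrl tumors. RPL7L1, a nucleolar relative of RPL7, averaged 10.60 ± 0.044 in TD tumors and 10.51 ± 0.094 in ctrl tumors, and RPL7 averaged 11.93 ± 0.14 in TD tumors and 11.89 ± 0.12 in ctrl tumors. The groups overlapped for all 5 genes. The direction for RPL7L1 depended on the probe set: the brightest gave 0.095, and the other 6 gave log2 differences from -0.22 to -0.028, 3 of them at means between 9.17 and 10.19.

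Between the groups, no ribosomal protein gene passed the test. Over all tested genes limma called 8 higher (0.0584%) and 2 lower (0.0146%) in TD tumors at an adjusted p of 0.05, and of the 71 tested members it called 0 in either direction. At an unadjusted p of 0.05 the members again gave 0 higher and 0 lower, against 3.16% and 2.73% of all tested genes. Adjusted p values of members ran from 0.956 to 0.999. On the log2 scale 64 of 71 fold changes were within 0.1 of 0, and their median size was 0.042, against 0.085 over all tested genes.

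For the probe sets used, the confidence intervals bound what could have been missed. All 71 intervals included 0 and lay between -0.5 and 0.5, and 41 lay inside a 1.2-fold change in either direction. Over all 188 probe sets of the members, log2 differences ran from -0.34 to 0.49. The bound therefore does not extend to the other probe sets of a gene. The median SD within groups was 0.068 for members and 0.14 for all tested genes. RPL27 and RPS16, proteins of the 60S and 40S subunits, were among the steadiest, with SDs of 0.032 and 0.036. Limma draws each gene's variance towards that of all genes, so the SEs of members (median 0.090) also carry the spread of other genes. Whether the brightest probe sets were near the top of their range was not tested.

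**Figure D2:**
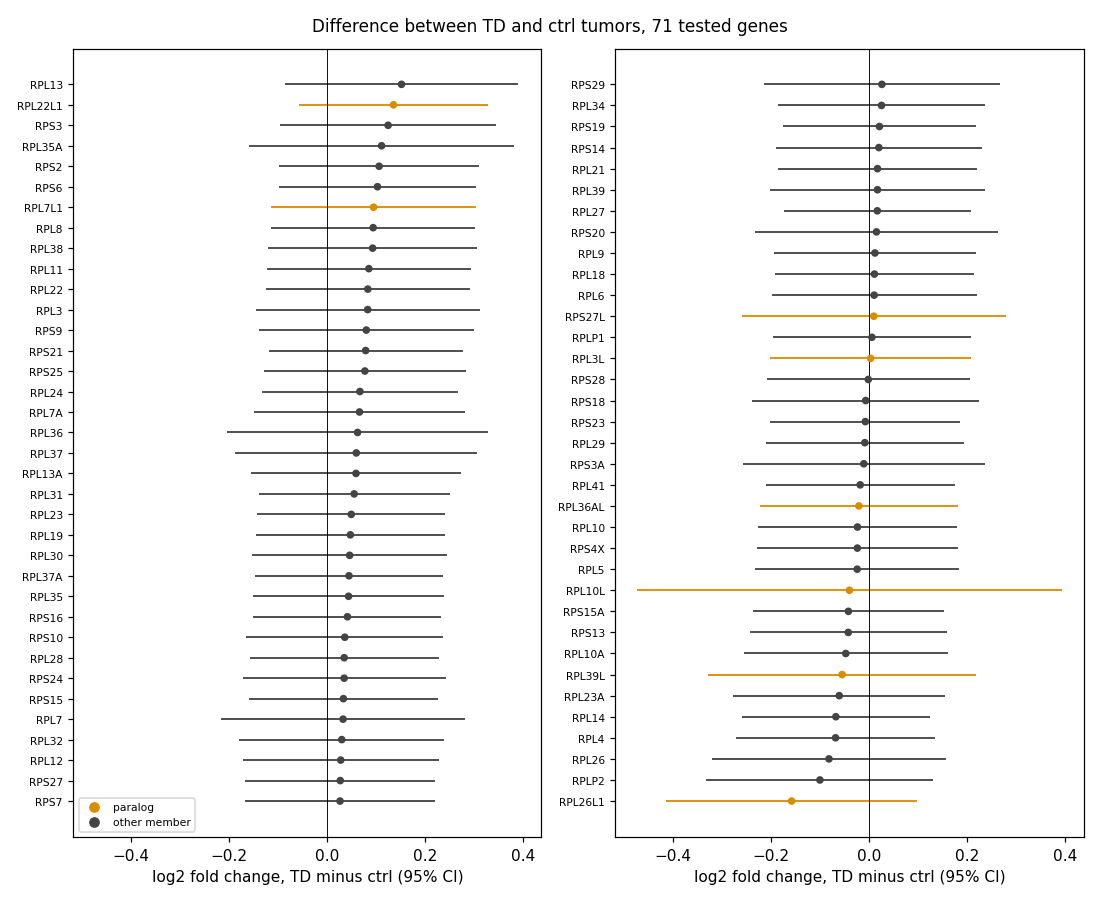
Log2 fold changes, TD minus ctrl, of the 71 tested ribosomal protein genes in order of size, with 95% confidence intervals from limma (lines) and paralogs in orange. Every interval includes 0, and RPL10L has the widest.

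Every TD value lay above every ctrl value in 5 of 71 members (7.04%, against 5.94% of all tested genes), and below in 1 (1.41%, against 5.74%). The 5 were RPL22L1, RPS2, RPS6, RPL24 and RPL37A, and the 1 was RPL14. RPS6, the 40S protein phosphorylated by S6 kinases, read 12.90, 12.86 and 12.89 in TD tumors, against 12.69, 12.82 and 12.84 in ctrl tumors, with a log2 fold change of 0.10 (SE 0.088, adjusted p = 0.963 by limma). Probe sets of RPS6 with means of 11.79 and 11.73 had differences of -0.027 and -0.074 with overlapping groups, so the separation was not shared by them. RPL24, a 60S protein, read 13.24, 13.10 and 13.11 in TD tumors, against 13.06, 13.10 and 13.09 in ctrl tumors, and the groups there were separated only beyond the second decimal. Its other 2 probe sets gave 0.036 and -0.066, with overlapping groups. RPL37A, a 60S protein, read 13.98, 13.99 and 13.98 in TD tumors, against 13.88, 13.96 and 13.98 in ctrl tumors, where they likewise nearly touched. RPL14, a 60S protein, read 13.01, 12.99 and 13.08 in TD tumors, against 13.09, 13.10 and 13.09 in ctrl tumors. Its ctrl values had an SD of 0.0018, and its log2 fold change was -0.067 (SE 0.084). Another 3 bright probe sets of RPL14 gave -0.096, -0.087 and -0.12, the groups overlapping on the last 2, and a dim one at 4.34 gave 0.26.

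RPL13, RPS3, RPS2 and RPS6 followed RPL22L1 among positive log2 fold changes by p. RPL13 read 11.72, 11.57 and 11.47 in TD tumors, against 11.54, 11.40 and 11.36 in ctrl tumors, which gave 0.15 (SE 0.10). RPS3, a 40S protein that also acts in DNA repair, read 13.55, 13.30 and 13.39 in TD tumors, against 13.32, 13.27 and 13.28 in ctrl tumors, which gave 0.12 (SE 0.097). For both genes TD tumor 1 was the highest array and the groups overlapped. RPS2 gave 0.11 (SE 0.089).

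RPLP2, RPL14, RPL26 and RPL4 followed RPL26L1 among negative log2 fold changes. RPLP2, an acidic protein of the stalk that recruits translation factors, read 12.97, 12.74 and 12.69 in TD tumors, against 12.91, 12.87 and 12.93 in ctrl tumors, which gave -0.10 (SE 0.10) with overlapping groups. Its stalk partner RPLP1 averaged 13.84 ± 0.0063 in TD tumors and 13.84 ± 0.088 in ctrl tumors (SD, n = 3 each). RPL4, a 60S protein lining the exit tunnel, had -0.068 (SE 0.089) and RPL26 -0.081 (SE 0.10). RPL5 and RPL11, which bind MDM2 when ribosome assembly fails, had -0.024 (SE 0.091) and 0.086 (SE 0.091). RPS19, a 40S protein mutated in Diamond-Blackfan anemia, had 0.022 (SE 0.086), and RPL41, a very small 60S protein, -0.018 (SE 0.084).

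Both subunits gave similar values. The 60S members had a median log2 fold change of 0.028 with 33 of 47 above 0, and the 40S members 0.027 with 17 of 24 above 0. Together 50 of 71 members were above 0 (70.4%, against 50.8% of all tested genes). The members' median was 0.027, against 0.0020 over all tested genes. Centring each array on its median left 33 members above 0 and 38 below. It left 5640 of 13694 tested genes above 0. The medians were then -0.0021 for members and -0.027 over all tested genes. Without ctrl tumor 1, 37 of 70 members were above 0 (median 0.0049), and RPL3L fell below the filter. Of 13650 genes tested with and without that tumor, 6692 were then above 0 (median -0.0026).

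**Figure D3:**
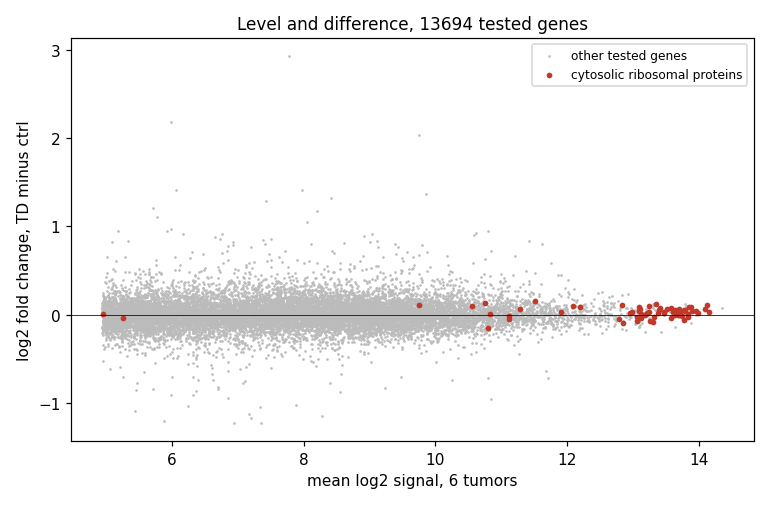
Log2 fold change, TD minus ctrl (y axis), against mean log2 signal over the 6 tumors (x axis) for 13694 tested genes, with ribosomal protein genes in red. Most members sit at the bright end, with log2 fold changes between -0.16 and 0.15.

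The 52 members at log2 13 or more had a median within-group SD of 0.063 and a median log2 fold change of 0.027, and the 45 other genes that bright had 0.088 and 0.00013. Ctrl tumor 1 was the lowest array in 34 of these members and in 20 of the other bright genes. The highest value on any probe set was 14.26 in ctrl tumor 1, and 14.76 to 15.01 in the other 5 tumors.

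The members' largest shift was in ctrl tumor 1. It was the lowest array in 39 of 71 members (54.9%, against 28.8% of all tested genes) and the highest in 5 (7.04%, against 27.2%). The median deviation of the members from their own means was 0.042, -0.011 and 0.011 in TD tumors 1 to 3, against -0.069, 0.0057 and 0.025 in ctrl tumors 1 to 3. RPL37 (-0.28 from the mean of the other 5), RPS3A (-0.23) and RPL3 (-0.21) were furthest down among tested members. The 5 with their highest value there were RPL26L1 (0.35), RPS27L (0.27), RPL39L (0.27), RPL35A (0.21) and RPL3L (0.098). Thus 4 of the 8 paralogs and 1 of 63 core members peaked in that tumor. TD tumor 1 was the highest array in 32 of 71 members (45.1%, against 18.5% of all tested genes). The median of all probe sets was 6.27 in ctrl tumor 1, and 6.34 to 6.39 in the others. Over all tested genes, the median deviation in ctrl tumor 1 was 0.0015, against -0.069 for the members. The part of the lower probe set median in the members' shift was not tested.

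Mitochondrial ribosomal proteins, which build the separate ribosomes of mitochondria, had the opposite sign in the same tumor. Their median deviation was 0.016, -0.058 and -0.0040 in TD tumors 1 to 3, against 0.17, -0.032 and -0.10 in ctrl tumors 1 to 3. Ctrl tumor 1 was the highest array for 48 of 73 and the lowest for 2. Host genes of small nucleolar RNAs were lowest in ctrl tumor 1 for 5 of 8, and translation factors for 21 of 40. These counts describe 1 tumor and carry no test.

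**Figure D4:**
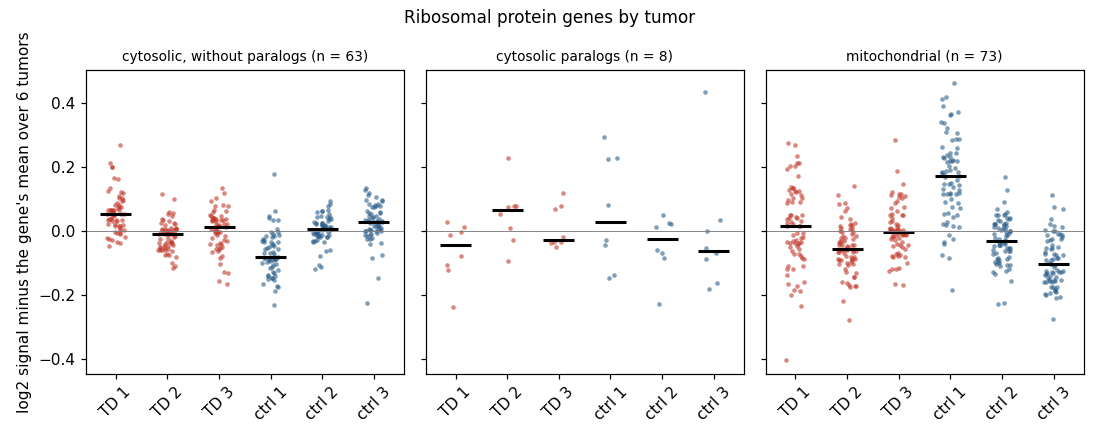
Log2 signal of each gene minus its mean over the 6 tumors (y axis), by tumor, for 63 core cytosolic ribosomal protein genes, 8 paralogs and 73 mitochondrial ribosomal protein genes. TD tumors are red, ctrl tumors blue and black bars are medians; in ctrl tumor 1 the core genes sit low (median -0.082) and the mitochondrial ones high (0.17).

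No gene of the related lists passed the test either. FAU, which encodes the 40S protein RPS30 fused to a ubiquitin-like protein, read 13.38, 13.34 and 13.37 in TD tumors, against 13.29, 13.27 and 13.22 in ctrl tumors, with every TD value on top. Its log2 fold change was 0.099 and its adjusted p 0.963 by limma. Of all tested genes 50.8% had log2 fold changes above 0, and 5640 of 13694 did after median centring. Without ctrl tumor 1 it was 6692 of 13650. Of 40 translation factors 31 were above 0 (median 0.034), and 20 after median centring (median 0.0046). EIF3A, a subunit of an initiation factor, had the smallest p of them, with a log2 fold change of 0.37 (adjusted p = 0.830 by limma). Of 43 ribosome biogenesis factors 25 were above 0 (median 0.020), and 19 after median centring (median -0.0090). Of 8 snoRNA host genes 4 were above 0 (median 0.017), against 0 (median -0.15) without ctrl tumor 1. Of 73 mitochondrial ribosomal proteins 30 were above 0 (median -0.027), against 56 (median 0.049) without ctrl tumor 1. MRPS30 and MRPL18 had the smallest p of them, at 0.29 and -0.28 (adjusted p = 0.687 and 0.721 by limma).

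Probe sets of the same gene gave a further reading of the comparison, but on the same arrays and so not an independent one. The 72 members had 188 probe sets, of which 120 were higher and 68 lower in TD tumors. By gene, 50 of 71 members were above 0 (against 50.8% of all tested genes), and 33 after median centring (against 5640 of 13694 tested genes). Whether the probe set count would move likewise, or differs from that of all probe sets, was not tested. Tested each on its own, 176 of the 188 probe sets passed the filter and 0 were called, against 5 of all 34505 probe sets (0.0145%). At an unadjusted p of 0.05, 4 member probe sets were higher and 1 lower, against 3.40% and 2.18% of all probe sets. The lower one was the dimmest probe set of RPS23, a 40S protein of the decoding centre, which read 9.61, 9.54 and 9.61 in TD tumors, against 9.90, 9.90 and 9.97 in ctrl tumors. The groups did not overlap there, with a log2 fold change of -0.34 (SE 0.089, adjusted p = 0.535 by limma). The probe sets of RPS23 at 13.70 and 13.56 had differences of -0.0071 and 0.0061.

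The 4 higher ones belonged to RPS2, RPL4, RPL32 and RPS3A, and each was a dimmer probe set of a bright gene. That of RPS2 read 7.54, 7.61 and 7.64 in TD tumors, against 7.17, 7.39 and 7.21 in ctrl tumors (a difference of 0.34 with SE 0.10, adjusted p = 0.641 by limma). That of RPL4 read 6.21, 6.37 and 6.54 in TD tumors, against 5.64, 6.14 and 5.99 in ctrl tumors. Ctrl tumor 1 was again the lowest array on both. RPS3A, a 40S protein, had 0.47 on a probe set at 6.57 and -0.010 on one at 13.69. In RPL37A, whose probe sets differed most, log2 fold changes ran from -0.13 to 0.49, the brightest probe set giving 0.045. Which transcripts the dim probe sets read was not tested.

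The type of probe set limits how far a value can be tied to a gene. Most members rested on types that may also read related sequences: 36 of 72 used an _x_at probe set (50%, against 11.8% of all genes) and 21 an _s_at probe set (29.2%, against 14.8%). Ribosomal protein genes have many processed pseudogenes, so near-identical copies can share the signal. Without these types 35 members were tested, 0 were called, and the median log2 fold change was 0.030. For some members this took a far dimmer probe set, such as 7.43 in place of 14.13 for RPS2 and 6.15 in place of 13.26 for RPL4. That run therefore cannot show whether the bright signals belong to 1 gene.

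Markers of the labelled cell type were mostly dim. KRT5, KRT14 and PKP1, which mark squamous epithelium, had means of 5.12, 5.70 and 5.62, close to the filter, and DSG3 (4.63) was below it. SOX2, a squamous lineage factor, stood at 9.24 with a log2 fold change of -0.83 (adjusted p = 0.369 by limma). It passed an unadjusted p of 0.05, as did 2.73% of all tested genes with TD lower. TP63, KRT6A and KRT17 were not analysed here. Of 6 tested fibroblast markers (of 8), 4 had TD higher at an unadjusted p of 0.05 (FAP, COL1A1, COL1A2 and THY1), against 3.16% of all tested genes. After adjustment 0 passed, and DCN and LUM were below the filter. The fibroblast markers had mean log2 signals of 6.44, 6.41 and 6.32 in TD tumors and 6.02, 6.19 and 5.98 in ctrl tumors. Of 7 leukocyte markers 5 were tested and 0 passed, with mean log2 signals over the list of 5.86, 5.87 and 5.83 in TD tumors and 5.78, 5.75 and 5.77 in ctrl tumors. CD68, a macrophage marker, read 8.73, 8.31 and 8.50 in TD tumors, against 7.78, 7.68 and 7.69 in ctrl tumors, with a log2 fold change of 0.80 (adjusted p = 0.112 by limma) and no overlap. CSF1R, a receptor of macrophages, was also higher in every TD tumor than in any ctrl tumor (log2 fold change 0.17), and TYROBP, an adaptor of myeloid cells, lower in every one (-0.13). Of all tested genes, 5.94% lay apart in this way with TD higher and 5.74% with TD lower. AIF1 and ITGAM overlapped between the groups, and PTPRC (3.85) and CD14 (4.02) were below the filter. The part of other cells or of mouse RNA in the members' values was not tested. In such bulk samples, fewer cells of a type and less RNA per cell cannot be told apart.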

How the data were processed

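RNA of 6 xenograft tumors was biotin-labelled by the manufacturer's procedures, per the labels' protocols, with 1 Affymetrix array used for each. The authors deposited log2 probe set values. That scale was read from the values, and which background correction, normalization and summarisation were applied is not given in the sources used here. Precision is limited by 3 arrays per group.

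Of 49293 probe sets, 44988 named 1 gene in the platform annotation, 1832 several and 2473 none. The probe set with the highest mean stood for each of 18132 genes. Genes below the 30th percentile of probe set means (log2 4.94) were left out, 4438 in all, leaving 13694. The groups were set against each other by lmFit and eBayes (two-sided) of limma 3.58.1, run under R 4.3.3, with Benjamini-Hochberg adjustment over all tested genes and a threshold of 0.05. Exact permutation tests over 3 against 3 tumors were two-sided. Fold changes are log2 differences, TD minus ctrl. The fit was tested on simulated data.

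Members and lists were chosen with earlier results of these data known. Named were members past the threshold, the 5 with the smallest p per direction, the 5 highest and 8 lowest, the 5 most and 3 least variable, the 3 with the widest probe set differences, the paralogs and their partners, and stalk, RPL5, RPL11, RPS6, RPS19 and RPL41 genes. Other genes are named as examples of a count and were chosen after their values were seen. Promoter sequences are from RefSeq (GRCh38.p14) and were matched by symbol. Alternatives covered the filter, probe set choice, normalization, variance model, weights per array, a block for the replicate number and leaving out each tumor. Input was read with data.table (version 1.17.8) and pandas 2.3.3, and figures were drawn with matplotlib 3.10.9 in Python 3.11.15.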

Additional observations from a re-analysis of the deposited data

How the results depend on the processing

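No ribosomal protein gene was called under any alternative run, including each probe set tested on its own, which was added after seeing the data. The members' median log2 fold change (0.027) ran from -0.0021 with median centring to 0.046 without ctrl tumor 3, and from 0.0049 to 0.046 when 1 tumor was left out. At an unadjusted p of 0.05, 5 members passed with the most variable probe set, 2 with array weights, 2 without _x_at and _s_at types, 1 with the mean of probe sets and 1 without ctrl tumor 1. The smallest adjusted p of a member under these alternatives was 0.286 by limma, for RPL35A with array weights. Over all genes, the 10 calls became 1 with the filter at the 50th percentile, 16 with the mean of probe sets, 6 with the most variable probe set and 140 with array weights. They lay between 0 (without TD tumor 1) and 37 (without ctrl tumor 1) when 1 tumor was left out, and were 3 without each of the other 4. The cause of these moves was not tested.

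The replicate number as a block gave 8 calls over all genes, 0 among members and a median member log2 fold change of 0.027. Deviations of same-numbered tumors correlated at 0.097, 0.17 and 0.051, and those of different-numbered tumors at -0.14 to -0.018. The same-numbered values were small, so the number was not taken to pair the tumors, although each tumor correlated best with its own number. Whether same-numbered tumors share a batch was not tested. Of 515 values of named members under alternatives, 60 changed sign, each with at least 1 of the 2 values within its SE of 0. The number of arrays, and the unknown response of probe sets at the dim and bright ends, limit all values.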
